A study of Homo sapiens with 3 samples.

Results

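Distal introns held 16554 of the 123298 DDX6 peaks (13.4%) in the authors' list for immunoprecipitation (IP) replicate 1 and 5605 of 62411 (8.98%) in the list for IP replicate 2. Every peak that the authors annotated as lying in a distal intron of a protein-coding gene was taken, with no limit on its p or fold. The annotation separates distal introns from proximal introns, which lie next to the splice sites, and the distance that divides them is not given in the sources used here. These peaks lay in 4421 host genes, of which 3880 were hosts in replicate 1, 2083 in replicate 2 and 1542 in both. The peaks were described from the authors' values, and the hosts' distal intron and exonic reads were then compared between IP and input.

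DDX6 is an RNA helicase of the DEAD-box family that represses translation and promotes decapping, and it is needed for P-bodies, cytoplasmic granules of untranslated mRNA. Introns are transcribed with the gene and are normally spliced out in the nucleus, so intronic reads come mainly from unspliced or excised RNA and reads of mature mRNA fall in exons. Long introns also hold repeats and unannotated transcripts, and their reads need not come from the pre-mRNA of the host.

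The data are eCLIP libraries of MOLM-13, a human acute myeloid leukaemia cell line. Ultraviolet light cross-linked protein to RNA in the cells, RNase I shortened the RNA of the lysate, and an antibody to DDX6 recovered the complexes. The DDX6 IP has 2 libraries and the input, made without the antibody, has 1. No label says that the replicates are separate cultures, so the p-values cover the spread between libraries alone, and that spread could be technical. The input has no replicate check.

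Depth was 4643494 counted reads in IP replicate 1, 1244213 in IP replicate 2 and 7807540 in the input. All 11 myeloid leukaemia markers had at least 10 exonic reads in the input, and of 8 matched markers of other cells COL1A1, a collagen of connective tissue, did so with 27. Summed exonic reads of the other cells' markers were 111 and 14 in the IP libraries and 36 in the input, and CD3E and EPCAM had 0 in each library. The part of these few reads in the results was not tested.

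Distal introns took a smaller share of the reads in the DDX6 IP than in the input. They held 15.2% of the counted reads in IP replicate 1 (704958 reads) and 17.3% in IP replicate 2 (215486), against 46.7% in the input (3647492). Both IP libraries were below the input, and the replicates differed by far less than either differed from it. Exonic reads showed the opposite order, with 67.6% and 62.6% in the IP libraries and 30.7% in the input. The exact Clopper-Pearson interval (95%) for the replicate 2 share ran from 17.3% to 17.4%. The interval, like the floors used for rows without input reads, covers counting error alone.

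Few distal intron peaks stood far above the input. A peak is called past the thresholds here when the authors' values reach a -log10 p of 3 and a log2 fold of IP over input of 3. In IP replicate 1 153 distal intron peaks (0.924%) were past them, where 11.5% of all peaks in that list were. In IP replicate 2 the count was 212 (3.78%), where 12.9% of all peaks were. Among all peaks outside distal introns the shares were 13.1% in replicate 1 and 13.8% in replicate 2. Both lists were called against the same input, so these shares are set side by side without a test.

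The 2 lists differed in where they put the distal intron peaks. The median log2 fold per peak was 0.59 in IP replicate 1 and 2.49 in IP replicate 2, where peaks outside distal introns had 1.92 and 2.28. Below the input lay 4370 distal intron peaks (26.4%) of replicate 1 and 232 (4.14%) of replicate 2. The higher folds of replicate 2 came with weak p-values: 2142 of its peaks reached a log2 fold of 3 and 244 a -log10 p of 3, and the median -log10 p was 1.42. In replicate 1 the same counts were 726 and 234, with a median -log10 p of 0.261.

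**Figure D1:**
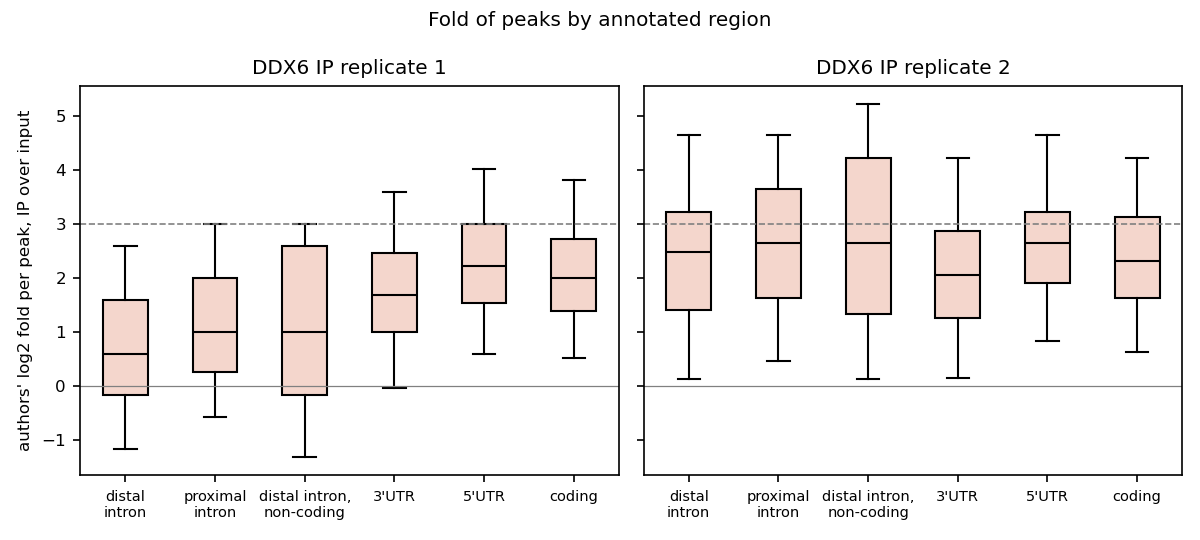
Authors' log2 fold of IP over input per peak (vertical axis) by annotated region (horizontal axis), in 1 panel for each IP library. Boxes give the quartiles and the median, whiskers reach from the 5th to the 95th percentile, and the dashed line marks the log2 fold threshold of 3. Distal introns have the lowest median of the plotted regions in replicate 1 (0.59), while in replicate 2 their median of 2.49 lies among those of the other regions.

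The folds were also coarse. The 5 most frequent log2 values accounted for 7221 distal intron peaks (43.6%) in IP replicate 1 and 2988 (53.3%) in IP replicate 2. In replicate 1 the most frequent was 1.01, shared by 1859 peaks with a median -log10 p of 0.392. In replicate 2 it was 4.226, shared by 839 peaks with a median -log10 p of 2.02, of which 7 were past both thresholds. The whole class took 490 distinct values in replicate 1 and 239 in replicate 2.

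Peaks of other classes were past the thresholds in different shares. Of 3' splice site peaks 0.417% (1 of 240) were past them in replicate 1, below distal introns, and of 5' splice site peaks 1.17% in replicate 1 and 4.86% in replicate 2. Of proximal intron peaks 1.86% were past the thresholds in replicate 1 and 4.78% in replicate 2, and of distal intron peaks of non-coding genes 2.78% and 11.4%. The shares were 14.9% and 14.9% in coding sequence, 18.6% and 18.3% in 5'UTRs, and 10.6% and 10.8% in 3'UTRs. Distal intron peaks were 54 bases wide at the median in replicate 1 and 42 in replicate 2, against 47 and 43 for all other peaks. About as many distal intron peaks also lay in an intron of a non-coding gene on the same strand as did not, 8567 (51.8%) in replicate 1 and 2948 (52.6%) in replicate 2, so those reads cannot be given to 1 transcript.

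A smaller share of distal intron peaks than of other peaks met a peak in the other list. Of the distal intron peaks 619 (3.74%) of replicate 1 and 640 (11.4%) of replicate 2 overlapped a distal intron peak of the other list by at least 1 base on the same strand. Overlap with any peak of the other list was found for 32.2% of all other peaks in replicate 1 and 54.5% in replicate 2. By that measure the shares were 3.75% and 11.5% for distal introns and 5.19% and 8.62% for proximal introns. They were 7.46% and 8.29% for 5' splice sites and 7.51% and 24.7% for distal introns of non-coding genes. Low shares were therefore not particular to distal introns. Among the distal intron peaks past the thresholds, 74 of 153 in replicate 1 (48.4%) met a peak past them in the other list. In replicate 2 it was 75 of 212 (35.4%). Both shares were larger than those over all distal intron peaks, and no such share was taken for other classes. Abutting pieces of 1 stretch count separately in these shares. Merged into sites, 117 in replicate 1 and 155 in replicate 2 were past the thresholds, and 46 sites held peaks past them in both lists. The difference between these shares was not tested, and the lists share the input.

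Peaks that abut one another, which the authors' lists often give as pieces of 1 stretch, were merged into sites after the data were seen. The peaks past both thresholds in both lists then formed 46 sites in 45 host genes. These sites were short, with widths of 4 to 242 bases and a median of 26, and 36 of them were at most 40 bases. In 34 sites both ends agreed between the lists within 2 bases. Their median log2 fold was 4.68 in replicate 1 and 5.89 in replicate 2, which had the higher fold at 39 of the 46. Replicate 2 also had the higher median over all distal intron peaks, at 2.49 against 0.59. The 46 sites lay on 16 chromosomes, at most 7 on one. Of them, 15 overlapped a peak of the authors' list of reproducible peaks, which is described below. The sites in ALPL, KDM4C, CUX1 and SKI were among those that overlapped none.

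**Figure D2:**
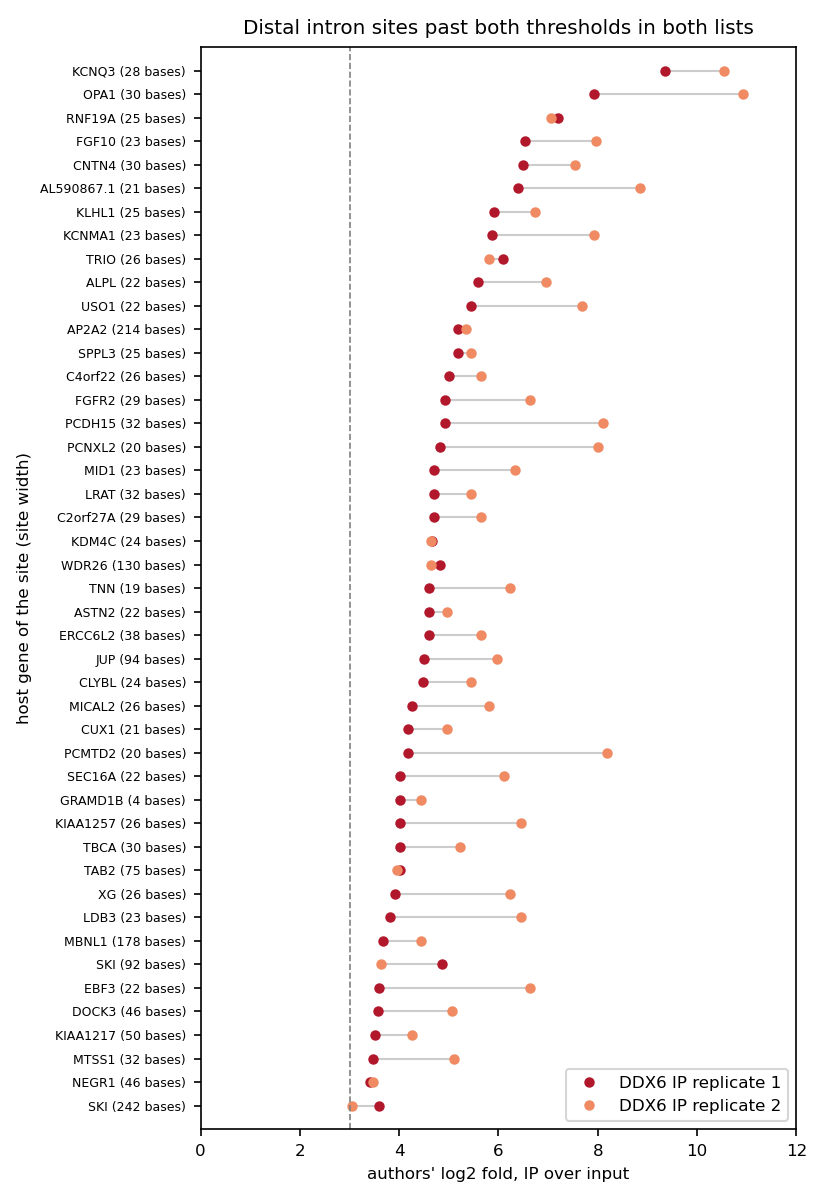
Authors' log2 fold of IP over input (horizontal axis) at 45 of the 46 distal intron sites past both thresholds in both lists, 1 row for each site with its host gene and width, with 1 point for each IP replicate and a dashed line at the threshold of 3. The sites of KCNQ3 and OPA1 stand apart at the top, and at 38 of the sites shown the point of replicate 2 lies to the right of that of replicate 1.

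Within each list, sites of at most 40 bases made up a larger share of those past the thresholds than of the others. In IP replicate 1 53 of 117 sites past them (45.3%) were that short, against 27.3% of its other distal intron sites. In IP replicate 2 the counts were 95 of 155 (61.3%) and 29.7%. The median width of sites past the thresholds was 47 bases in replicate 1 and 29 in replicate 2, where the other sites had 55 and 52.

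The site with the largest smaller fold of the lists was in KCNQ3 (ENSG00000184156.11), which encodes a subunit of the voltage-gated potassium channel that carries the M current in neurons. It covered 28 bases at chr8:133208156-133208183 on the minus strand (hg19), with the same ends in both lists. Its log2 fold was 9.36 in IP replicate 1 and 10.54 in IP replicate 2, with -log10 p of 308 and 400, where 400 is the highest value the lists give. KCNQ3 distal introns had 206 CPM (counts scaled to library size with TMM factors) in IP replicate 1 and 1352 in IP replicate 2, against 110 in the input. Both IP libraries were above the input, but by unequal amounts, with 0.90 log2 in replicate 1 and 3.61 in replicate 2. The fitted difference was 2.81 log2 (SE 0.43, edgeR adjusted p = 8.76e-10), and DESeq2 did not call it (adjusted p = 0.179). Exonic reads of KCNQ3 were 10 and 5 in the IP libraries and 10 in the input.

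The next site by that measure was in OPA1, the GTPase that fuses mitochondrial inner membranes. It lay at chr3:193330826-193330855 on the plus strand, 30 bases, with log2 folds of 7.92 in IP replicate 1 and 10.92 in IP replicate 2. The distal introns of OPA1 as a whole had 61.0 CPM in IP replicate 1 and 307 in IP replicate 2, against 76.8 in the input. The input lay between the replicates, so the groups overlapped. The fit called it higher (1.21 log2, SE 0.34, edgeR adjusted p = 0.00116), a call that rested on replicate 2: without replicate 2 the value was -0.33, and DESeq2 (adjusted p = 0.484) and the fit with no filter (adjusted p = 0.0935) did not make it.

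Several strong sites lay in genes whose distal introns as a whole were lower in the IP. In RNF19A, an E3 ubiquitin ligase, 25 bases at chr8:101346912-101346936 (minus strand) had log2 folds of 7.20 in IP replicate 1 and 7.07 in IP replicate 2. RNF19A distal introns had 57.0 and 77.3 CPM in the IP libraries and 130 in the input (-0.98 log2, SE 0.31, edgeR adjusted p = 0.00358), with both IP libraries below the input. In CNTN4, a neuronal adhesion protein of the contactin family, 30 bases at chr3:2795651-2795680 (plus strand) had log2 folds of 6.50 in replicate 1 and 7.55 in replicate 2. CNTN4 distal introns had 96.7 and 133 CPM in the IP libraries, against 269 in the input (-1.25 log2, SE 0.32, edgeR adjusted p = 0.000323). The DESeq2 fit for RNF19A (adjusted p = 0.106) and the fits over genes with at least 10 input reads for RNF19A (adjusted p = 0.197) and CNTN4 (adjusted p = 0.0665) did not make these calls.

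Other leading sites lay in introns with almost no input reads. FGF10, a fibroblast growth factor of the embryonic mesenchyme, had a site of 23 bases at chr5:44308875-44308897 (minus strand) with log2 folds of 6.53 in IP replicate 1 and 7.96 in IP replicate 2. FGF10 distal introns had 50 reads in IP replicate 1, 41 in IP replicate 2 and 0 in the input, and no exonic read in any library. Against a floor of 3 input reads they were at least 32.7-fold higher in replicate 1 and at least 96.2-fold higher in replicate 2. AL590867.1 (ENSG00000213121.2) had a site of 21 bases at chr6:153584505-153584525 (plus strand) with log2 folds of 6.40 and 8.85. Its distal introns had 92 and 79 reads in the IP libraries and 0 in the input. ALPL, the tissue-nonspecific alkaline phosphatase, had 22 bases at chr1:21888893-21888914 (plus strand) with log2 folds of 5.59 and 6.96, and 26 and 24 distal intron reads in the IP libraries against 1 in the input.

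Sites in KLHL1, KCNMA1 and TRIO completed the 10 with the largest smaller fold of the lists. KLHL1, a kelch protein of neurons, had 25 bases at chr13:70558770-70558794 (minus strand) with log2 folds of 5.92 in IP replicate 1 and 6.73 in IP replicate 2. KCNMA1, the pore subunit of the large-conductance calcium-activated potassium channel, had 23 bases at chr10:79142957-79142979 (minus strand) with 5.87 and 7.93. TRIO, a guanine nucleotide exchange factor for small GTPases, had 26 bases at chr5:14168634-14168659 (plus strand) with 6.10 and 5.81. Distal introns of KLHL1 had 49 and 21 reads in the IP libraries and 4 in the input, so they passed the filter on reads only through the IP. Distal introns of KCNMA1 and TRIO were called higher in the IP, at 1.36 log2 for KCNMA1 and 1.74 for TRIO (edgeR adjusted p = 0.000139 and 2.61e-06). TRIO exons were higher by more, at 3.37 log2 (SE 0.51).

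Ranked by the smaller -log10 p, KIAA1217 and JUP also came among the first 5, beside KCNQ3, OPA1 and AL590867.1. The KIAA1217 site was 50 bases at chr10:24157018-24157067 (plus strand), with moderate log2 folds of 3.52 in replicate 1 and 4.25 in replicate 2 beside -log10 p of 78.7 and 400. The JUP site, in the gene of the junction protein plakoglobin, was 94 bases at chr17:39834933-39835026 (minus strand), with log2 folds of 4.50 and 5.96 and -log10 p of 38.2 and 59.5.

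Of the 45 hosts of such sites, distal introns as a whole were called higher in the IP for 23, lower for 15 and neither for 5, and those of the remaining 2, LRAT and KIAA1257, were not tested. Over all distal introns tested 4.49% were higher and 73.8% lower, but these hosts were picked for sites high in the IP, and 9 of the 23 had fewer than 10 input reads and passed the filter only through the IP. The counts are therefore a description. Hosts with fewer than 10 exonic reads in every library held 19 of the 46 sites, and 24 sites also lay in an intron of a non-coding gene on the same strand. Sites in hosts called lower included USO1, a Golgi vesicle tether, with log2 folds of 5.44 and 7.69, the histone demethylase gene KDM4C with 4.65 and 4.64, and the transcription factor gene CUX1 with 4.18 and 4.96.

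The authors' list of reproducible peaks held 34 distal intron peaks among 1587 (2.14%), which formed 16 sites. The 34 peaks, counted as pieces, had a median log2 fold of 6.39, against 3.83 for the other reproducible peaks. Their median width was 13 bases, against 49, but a piece can be narrower than its site. A distal intron peak, in KCNQ3, had the highest fold of that list at 9.95 log2, and 3 of its 10 highest were in distal introns. These too are pieces, and the KCNQ3 site alone gave 2 of the 34. How the authors combined the replicates in this list is not given in the sources used here.

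Across host genes, distal introns were lower in the DDX6 IP and exons of the same genes were higher. Of 3910 hosts with enough distal intron reads to test, 166 were called higher (4.25%) and 3110 lower (79.5%), where 4.49% of all 7154 distal introns tested were higher and 73.8% lower. The other 511 hosts fell below the filter of 10 reads in at least 2 of the 3 libraries. The median log2 fold over tested hosts was -1.38, with -1.41 in IP replicate 1 and -1.29 in IP replicate 2, against -1.37 over all distal introns tested and -1.35 over the 3244 of genes that were not hosts. The zero of these folds is set by scaling over exons and introns together. DESeq2 called 103 of the 3910 hosts higher and 1702 lower, and a filter of 30 reads gave 57 higher.

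Exons of the hosts moved the other way. Of 3733 hosts with tested exons, 3084 were called higher and 4 lower, where 73.4% of all exonic regions tested were higher and 0.914% lower. The median exonic log2 fold was 1.54 over hosts and 1.44 over all genes. In 3601 hosts with both rows tested, the distal intron fold minus the exonic fold had a median of -2.92 log2 (quartiles -3.54 and -2.27), a difference that does not depend on the scaling, against -2.96 over all 6274 such genes. Distal introns lower and exons higher were called together in 2607 hosts, and both higher in 19.

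**Figure D3:**
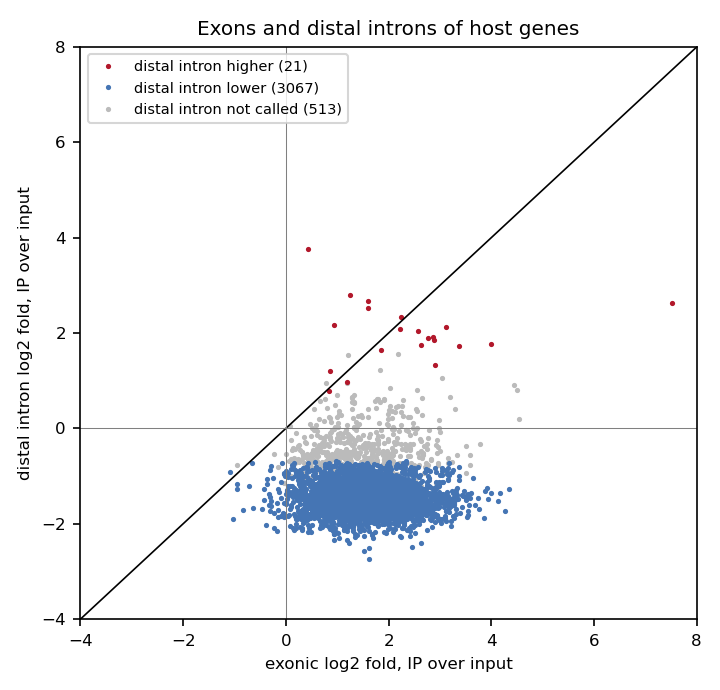
Distal intron log2 fold (vertical axis) against exonic log2 fold (horizontal axis), IP over input, for the 3601 host genes with both rows tested, 1 point for each gene, coloured by the edgeR call of the distal intron, with a line where both are equal. The cloud lies to the right of 0 and below it, and 11 genes lie above the line.

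The 11 hosts above that line, of 3601, were JUP, KCNQ3, ATPIF1, ERRFI1, ABCC3, OPA1, GPR157, RFX8, ATF5, RANBP1 and COL6A3. They were named after their values were seen. Of all 6274 genes with both rows tested, 22 lay above it. For GPR157, RFX8, ATF5, RANBP1 and COL6A3 the difference was smaller than the SE of either fold, and RFX8 and RANBP1 had both folds below the input. The OPA1 difference of 0.339 was smaller than the SE of its distal intron fold (0.344). In replicate 1 the OPA1 distal intron fold of -0.33 lay below its exonic fold of 1.05. JUP had 128 and 54 distal intron reads in the IP libraries and 22 in the input, and 12, 1 and 14 exonic reads in the same order. Its distal intron fold was 3.77 log2 (SE 0.44, edgeR adjusted p = 9.34e-16) and its exonic fold 0.42 (SE 0.82, edgeR adjusted p = 0.654). COL6A3, a chain of collagen VI, had a distal intron fold of 2.33 log2 and an exonic fold of 2.25.

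Hosts called higher were mostly genes with few exonic reads. Of the 166, 110 had fewer than 10 exonic reads in every library and 26 had none, and 162 had 1 direction in both IP libraries. Their input counts were often small: 36 had fewer than 10 distal intron reads in the input, and 5 had 0 (AL590867.1, FGF10, FGFR2, XG and LDB3). Such genes pass the filter only through the IP libraries. Among genes with at least 10 input reads, in a filter chosen after seeing the data, 143 hosts were called higher. A peak past both thresholds was listed in 55 of the 166, and 111 had peaks below them.

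PCDH15 and NRG1 were among the named host distal introns with the highest folds. PCDH15, a protocadherin of inner ear hair cells, had 79 and 57 distal intron reads in the IP libraries against 12 in the input (20.0, 51.8 and 1.55 CPM), 20.6-fold higher (4.37 log2, SE 0.48, edgeR adjusted p = 3.61e-17). NRG1, which encodes the neuregulin ligands of ERBB receptors, had 236 and 126 reads in the IP libraries against 36 (59.7, 115 and 4.65 CPM; 4.17 log2, SE 0.41). For both genes each IP library lay above the input, as the rule that named them required.

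KIAA1217 followed at 3.70 log2 with 300 and 231 reads in the IP libraries and 82 in the input. DOCK1, an exchange factor for Rac, was at 3.45, DMD, which encodes dystrophin, at 3.43, AUTS2 at 3.13 and AKAP6, a protein kinase A anchor of muscle, at 3.11. In DMD and AUTS2 replicate 1 had the higher CPM (37.7 and 16.4 in the IP libraries for DMD, against 2.71 in the input). Both IP libraries lay above the input, which the same rule required. AL590867.1, with 0 input reads, was at least 60.1-fold higher in replicate 1 and at least 185-fold higher in replicate 2.

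**Figure D4:**
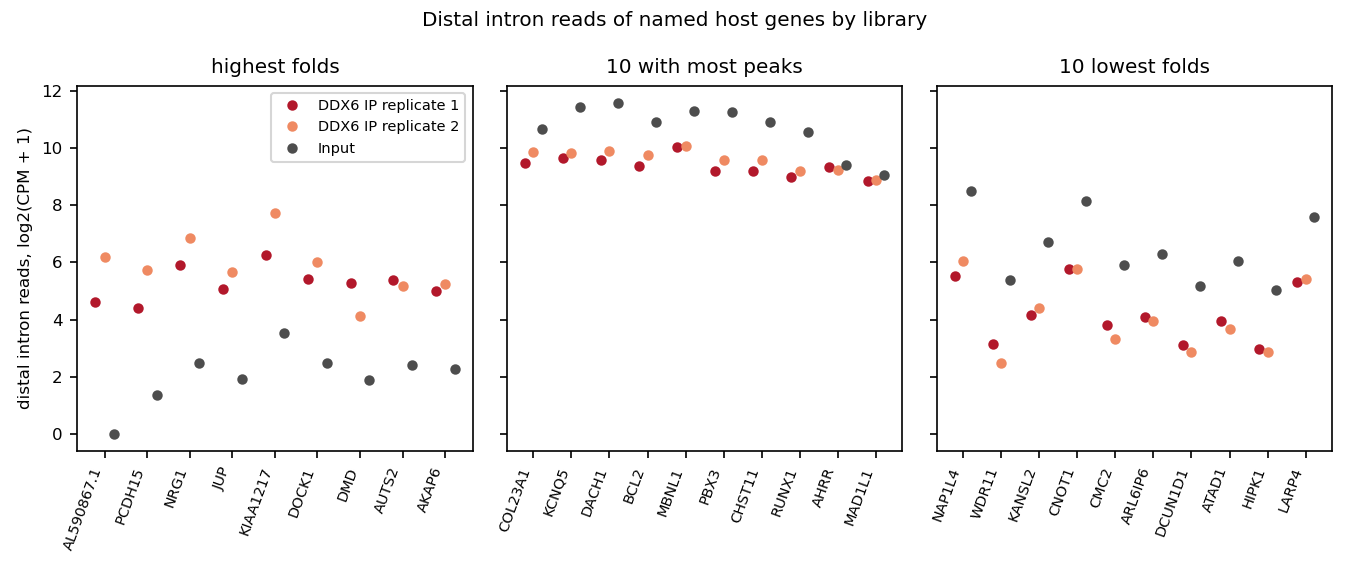
Distal intron reads as log2(CPM + 1) (vertical axis) in each IP library and the input for named host genes (horizontal axis): those with the highest folds, the 10 with most peaks and the 10 with the lowest folds. In the first panel both IP points of each gene lie above its input point and in the last both lie below it, as the rule that named these genes required. In the middle panel AHRR and MAD1L1 have all 3 points close together.

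The 10 named distal introns lowest in the IP belonged to genes whose exons were called higher, as were those of 82.6% of hosts with tested exons. NAP1L4, a histone chaperone, had 44.6 and 65.4 CPM in the IP libraries against 355 in the input (-2.73 log2, SE 0.33, edgeR adjusted p = 7.68e-15), and its exons were at 1.63 log2. CNOT1, the scaffold of the CCR4-NOT deadenylase, had 53.4 and 53.6 CPM in the IP libraries against 284 in the input (-2.41 log2, SE 0.32, edgeR adjusted p = 2.50e-12), and its exons were at 2.64 log2. WDR11 was at -2.56, KANSL2, a subunit of a histone acetyltransferase complex, at -2.51, and CMC2, ARL6IP6, DCUN1D1, ATAD1, HIPK1 and LARP4 lay between -2.30 and -2.25. In each of these 10 genes both IP libraries were below the input, as the rule that named them required.

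Hosts with more exonic reads had lower distal intron folds. Hosts were grouped by exonic reads in the input, a split chosen after the data were seen. With 0 to 9 such reads, 146 of 299 tested hosts were called higher and 34 lower, with a median of 1.03 log2. With 10 to 99, 16 of 1461 were higher and 1087 lower (median -1.24), with 100 to 999, 4 of 2090 were higher and 1930 lower (-1.52), and with at least 1000, 59 of 60 were lower (-1.65). The same order held in each IP library, at 0.99, -1.28, -1.56 and -1.74 in replicate 1 and 0.69, -1.16, -1.42 and -1.45 in replicate 2. It held for all genes with tested distal introns too, where 292 of 847 genes (34.5%) with 0 to 9 exonic input reads were called higher with a median of 0.52. In that lowest group, introns with fewer than 10 distal intron reads in the input passed the filter only through the IP. This favours high folds there, and hosts were also picked by an IP peak, so the order is a description.

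**Figure D5:**
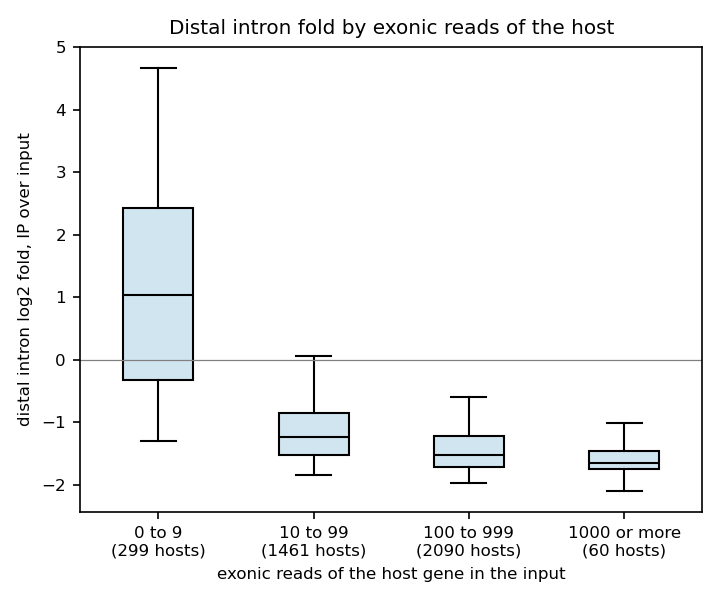
Distal intron log2 fold of IP over input (vertical axis) for tested hosts grouped by exonic reads in the input (horizontal axis), with boxes at the quartiles and the median and whiskers from the 5th to the 95th percentile. The median is 1.03 for the 299 hosts with 0 to 9 exonic reads and lies between -1.24 and -1.65 for the other groups. Some hosts of the first group passed the filter on reads only through the IP.

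Peaks showed the same split. Hosts with fewer than 10 exonic reads in every library held 808 distal intron peaks (4.88%) in IP replicate 1 and 319 (5.69%) in IP replicate 2. They held 47 of the peaks past the thresholds (30.7%) in replicate 1 and 76 (35.8%) in replicate 2. Of their peaks 5.82% were past in replicate 1 and 23.8% in replicate 2, against 0.673% and 2.57% of the peaks in all other hosts. Tested distal introns of 214 such hosts had a median of 1.38 log2, with 110 called higher and 22 lower. For the 179 with at least 10 input reads the median was 0.71, with 75 higher and 22 lower. The other 3696 hosts had a median of -1.41, with 56 higher and 3088 lower.

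Most hosts had few peaks, while some long introns were tiled with them. The median was 2 peaks for each host in both lists, and 1591 hosts (41.0%) of replicate 1 and 857 (41.1%) of replicate 2 had 1. Across hosts, the number of peaks went with the number of distal intron reads in the same library (Spearman correlation 0.61 in replicate 1 and 0.50 in replicate 2, over all 4421 hosts) and with those in the input (0.53 and 0.40). Peaks and reads of 1 library are not independent, and these values are descriptions.

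KCNQ5, a potassium channel gene of the KCNQ family, had the most peaks of replicate 1, 183, and 28 in IP replicate 2, where MBNL1 had the most, 74. It and the 4 genes that follow were named after their values were seen. The KCNQ5 peaks of replicate 1 spread over 433 kb with a median log2 fold of -0.86, and 82.5% lay below the input. Those of replicate 2 spread over 275 kb with a median of 0.68, and 28.6% lay below it. None of these KCNQ5 peaks was past the thresholds in either list. COL23A1, a transmembrane collagen, had 158 and 73 peaks, RUNX1, a transcription factor of blood formation, 116 and 28, and BCL2, which blocks apoptosis, 114 and 55. None of the peaks of these 3 genes was past the thresholds in either list. The distal introns of all 4 were lower in the IP, at -1.69 log2 for KCNQ5, -1.0 for COL23A1, -1.48 for RUNX1 and -1.34 for BCL2 (edgeR adjusted p = 4.09e-05, 0.0148, 0.000174 and 0.000925). Over genes with at least 10 input reads COL23A1 (adjusted p = 0.282) and BCL2 (adjusted p = 0.0872) were not called. MBNL1, a splicing regulator, had 89 and 74 peaks, with 1 past the thresholds in each list.

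The hosts with most peaks past the thresholds were of several kinds. KIAA1217 had 5 of its 6 peaks past them in IP replicate 1 and 5 of 5 in IP replicate 2, all pieces of the 50-base site. SKI, a co-repressor of TGF-beta signalling, had 6 of 59 and 2 of 15, and its sites in both lists were wider, at 92 and 242 bases. Its distal introns had 678 and 320 CPM in the IP libraries against 362 in the input, so the groups overlapped (0.47 log2, SE 0.37, edgeR adjusted p = 0.248), while its exons were at 2.25 log2. AP2A2, a subunit of the clathrin adaptor AP-2, had 6 of 18 and 1 of 2, and its distal introns were at 0.97 log2 (edgeR adjusted p = 0.00575, and 0.240 with no filter). CNTN4, OPA1, DOCK3, KCNMA1, RNF19A and AKAP6 were also among the 10.

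Host genes were also read by list. Of 42 large-intron neural and adhesion genes 26 were hosts, and their tested distal introns were higher for 21, lower for 4 and neither for SOX5, with a median of 3.26 log2. The list was partly drawn from earlier results of these data, so its direction is not independent evidence, and 23 of the 26 had fewer than 10 exonic reads in every library. NALF1 (FAM155A in the files) had 126 and 26 reads in the IP libraries and 3 in the input, a ratio of 77.7 (95% counting interval 26.1 to 381). The 4 lower genes had more input reads: MACROD2 had 888, FHIT 2345, WWOX 8192 and IMMP2L 4619, where the 21 higher genes had 3 to 135. Input reads enter the fold that made these calls, so this contrast is a description.

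In the lists of chromatin, mRNA decay and leukaemia genes most hosts were lower in distal introns and higher in exons, as were most hosts in general. The shares over all hosts tested were 79.5% lower in distal introns and 82.6% higher in exons, against 73.8% and 73.4% over all genes tested. Of 44 hosts among 53 chromatin modifiers, distal introns were lower for 42, with KDM4B and TET1 not called, and exons were higher for all 44 (medians -1.45 and 2.30 log2). The nuclear receptor co-repressor NCOR1 was at -2.03 log2 in distal introns and 2.18 in exons, and the histone acetyltransferase EP300 at -1.99 and 3.03. All 19 hosts among 32 P-body and decay genes were lower in distal introns (median -1.62 log2) and higher in exons, such as the RNA-binding repressor PUM2 at -1.90 and 2.45. Of 28 hosts among 44 myeloid and leukaemia genes 26 were lower in distal introns (median -1.61 log2), with SPI1 and JAK2 not called, and 27 were higher in exons, with MSI2 not called. The ubiquitin ligase CBL was at -1.88 log2 in distal introns and 1.47 in exons. Both hosts among 36 snoRNA host genes, SF3B3 and UBAP2, were lower. No host of these 4 lists had a higher distal intron by edgeR's or DESeq2's test, also at an unadjusted p under 0.05. By edgeR 4.25% of all hosts tested were higher. Every host of these lists had at least 10 exonic reads in some library, and of all 3696 tested hosts with as many 56 were higher (1.52%). All distal introns tested had a median of -1.37 log2.

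DDX6 itself held no distal intron peak in either list. Its distal introns had 35 and 10 reads in the IP libraries and 302 in the input (-2.12 log2, SE 0.36, edgeR adjusted p = 6.49e-08). Its exons had 1829 and 356 reads in the IP libraries and 744 in the input (2.04 log2, SE 0.38, edgeR adjusted p = 7.35e-07).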

How the data were processed

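The authors deposited counts of reads for the regions of each gene in each library, and these raw counts were used as they stand. Their deposited peak lists, 1 for each IP library and 1 of reproducible peaks, carry a -log10 p for IP against input, whose highest value is 400, and a log2 fold of IP over input. The submitters' processing notes name build hg19 and the tools STAR, SAMtools, cutadapt and UMI-tools. The sources used here give neither versions, annotation, peak caller and counter nor the treatment of strand, so reads of overlapping genes may be shared.

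Each gene gave a distal intron, a proximal intron (with splice site columns) and an exonic row, and non-coding genes gave the same from their own columns. The lines of totals and of intergenic reads (4.05% and 3.78% of the IP libraries and 2.63% of the input) stayed out of the fit. The 25377 rows that reached 10 reads in 2 or more libraries went into edgeR 4.0.16 (R 4.3.3) by glmQLFit and glmQLFTest after TMM normalisation, with calls made at 0.05 on p-values adjusted over all rows (Benjamini-Hochberg). With 1 residual degree of freedom, the single input is taken to vary as the IP libraries do. The common dispersion was 0.0326 (coefficient of variation 18.0%) and the prior degrees of freedom were infinite. CPM are relative to TMM-scaled reads of these rows, and folds for each replicate used a prior count of 2. A row with 0 input reads has a fold against a floor of 3 reads in the input. In simulated data for this comparison, over 25377 rows, the test recovered 11% of rows changed 2-fold and 79% of those changed 4-fold, with 8 false calls. There 200 rows were changed, up and down equally often, with 1 dispersion for all rows. In the real data most distal introns and exonic regions were called, so the 8 false calls do not give the error of the reported fit.

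The peak class, the lists and the tests were chosen with earlier results of these data known. Named hosts are the 10 with most peaks past the thresholds in both lists summed, the 10 highest and the 10 lowest called distal introns that moved the same way in each IP library with an above-median read level, and at most 3 members of each list, by p. Named sites are the 10 with the largest smaller log2 fold and the 5 with the largest smaller -log10 p, and hosts with most peaks were added after seeing values. Alternatives were library size alone, DESeq2 1.42.0, filters of 30 reads or of 1 read, each IP library left out, other peak thresholds and overlaps, and, after seeing the data, a filter of 10 input reads and merged sites. Sequence content was not analysed here, since no genome of that build was used. The results of some genes that these rules name are not reported here.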

Additional observations from a re-analysis of the deposited data

How the results depend on the processing

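Hosts called higher numbered 166, against 103 with DESeq2, 57 with a filter of 30 reads, 159 with library size alone, 215 with no filter beyond 1 read and 143 with at least 10 input reads. Hosts called lower numbered 3110, against 1702 with DESeq2 and 2175 with at least 10 input reads. Hosts with lower exons numbered 4, against 11 with library size alone, 10 with a filter of 30 reads, 11 with no filter, 0 with DESeq2 and 0 with edgeR over at least 10 input reads (0 in both also at an unadjusted p under 0.05). The median distal intron fold of -1.38 log2 was -1.58 with library size alone, -1.70 with a filter of 30 reads, -1.72 with no filter, and -1.42 to -1.29 with 1 IP library left out, values with no test. The within-host difference of -2.92 was -2.99 to -2.70 with 1 IP library left out, -2.92 with library size alone, -3.01 with a filter of 30 reads and -2.81 with no filter. The cause of these moves was not tested.

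Distal intron peaks past the thresholds numbered 153 in IP replicate 1, against 54 at a -log10 p of 5 and log2 fold of 4 and 233 at a log2 fold of 1, and 117 as merged sites. In IP replicate 2 they numbered 212, against 114, 244 and 155. Peaks shared between the lists numbered 619 and 640, against 366 and 366 when 50% of each peak had to overlap, and ignoring strand left both counts the same. The reproducible list held 34 under each overlap rule.

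Of the named hosts' distal intron folds, MAD1L1 turned to 0.13 with at least 10 input reads, AHRR to 0.044 with DESeq2 and 0.22 with at least 10 input reads, SKI to -0.18 without IP replicate 1, and OPA1 to -0.33 without IP replicate 2 (1.99 without IP replicate 1). MAD1L1 and AHRR were not called in any of these fits, and SKI, at 0.47, was not called in the reported one. No paired analysis was possible because the lone input carries no replicate number shared with both IP libraries. The lone input and the 1244213 reads of IP replicate 2 limit the precision for introns with few reads.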

Other observations

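Distal intron peaks were spread unevenly over the chromosomes. Chromosome 8 held the most in both lists, 1416 (8.55%) in IP replicate 1 and 467 (8.33%) in IP replicate 2, where it held 5.83% and 5.99% of all peaks. Chromosome 13 held 4.66% and 4.66% of the distal intron peaks against 2.61% and 2.70% of all peaks, while chromosome 1 held 6.99% and 7.31% against 8.98% and 9.18%. The difference between the shares was not tested.

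The strands were used about equally, with 51.9% of distal intron peaks on the plus strand in IP replicate 1 and 52.2% in IP replicate 2. Hosts held 80.9% and 82.7% of all distal intron reads of the IP libraries and 83.5% of those of the input.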
